A study of Homo sapiens with 6 samples.

Results

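The kinesin and dynein motor genes are 57 of the 26364 genes in the count table. They are the gene symbols that start with KIF or KIFC and a number, with DYNC1 or DYNC2, or with DYNL, apart from symbols in a pseudogene style. By type, 55 are protein-coding and 2 are antisense RNAs named after a kinesin gene (KIF9-AS1 and KIF25-AS1). By role they comprised 2 dynein heavy chains, 5 intermediate and light intermediate chains, 6 dynein light chains, 13 transport kinesins, 14 mitotic kinesins, 15 other kinesins and the antisense pair.

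RNA was sequenced in 6 libraries of HEK293T, a single transformed line of human embryonic kidney origin that carries the SV40 large T antigen. Every culture received okadaic acid at 200 nM for 3 h, so the design holds no untreated cells. Okadaic acid blocks phosphatases that strip phosphate from UPF1, the helicase that acts in nonsense-mediated mRNA decay (NMD). In the p-UPF1 IP group (n = 3, replicates 3, 6 and 9) RNA was recovered with an antibody to phosphorylated UPF1. In the pre-IP group (n = 3, replicates 1, 4 and 7) the title names RNA taken ahead of the immunoprecipitation (IP), while the antibody label names rabbit IgG, the mock antibody, so the labels conflict on what this control is. No label ties the replicates to separate cultures, and the p-values given may therefore reflect technical spread alone.

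Kinesins and cytoplasmic dynein are motors that walk along microtubules on the energy of ATP. Most kinesins move toward the fast-growing plus end, carry vesicles and organelles, and in dividing cells build and move the spindle. Cytoplasmic dynein moves toward the minus end as a large complex of heavy chains, which hold the motor, and of intermediate, light intermediate and light chains, which bind cargo and the dynactin complex. The heavy chains are very large proteins and the light chains very small ones.

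Total counts were 2057647, 1840194 and 905926 in p-UPF1 IP and 1179369, 600244 and 945005 in pre-IP. The scaling decides the zero point of every fold change: the median log2 fold change (p-UPF1 IP over pre-IP) of the 8070 tested genes was 0.10 with TMM scaling, which is used below, and 1.63 with library totals alone. Of 7 genes typical of HEK293T (VIM, KRT8, KRT18, NEFL, NEFM, PAX2 and LIN28B), all had counts, 6 were tested and 0 passed the test. The intermediate filament gene VIM had 1510, 1527 and 720 counts in p-UPF1 IP and 209, 90 and 120 in pre-IP. Of 12 markers of blood, liver, fibroblasts, muscle and epidermis, 8 had no count, and the sums were 14, 7 and 8 in p-UPF1 IP and 0, 0 and 6 in pre-IP. For such markers, fewer cells of a type and less RNA per cell cannot be told apart in bulk libraries. The fold changes compare RNA recovered with the antibody against the control, and not different cells.

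Among the motor genes, 53 had at least 1 count, 4 had none (DYNLRB2, KIF2B, KIF19 and KIF25-AS1), and 37 had enough counts to be tested. The test was the quasi-likelihood F-test of edgeR with Benjamini-Hochberg adjustment over all tested genes at 0.05. KIF18B and KIF21A were higher in p-UPF1 IP, DYNLL1 and DYNC1LI1 were lower, and the other 33 did not pass. That is 5.41% of the tested motor genes in each direction, against 8.81% of all tested genes called higher, 10.9% called lower and 19.7% in either direction, so motor genes were not called more often than the table as a whole. Both genes called higher lay under the count cutoff for testing in every pre-IP library. They entered the test through their p-UPF1 IP counts alone. An unadjusted p under 0.05 was reached by 12 of the 37. The fold change was positive for 30 and negative for 7, against 4339 positive and 3731 negative over all tested genes. The median log2 value of the motor genes was 0.72, with a range of -1.85 to 2.45.

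**Figure D1:**
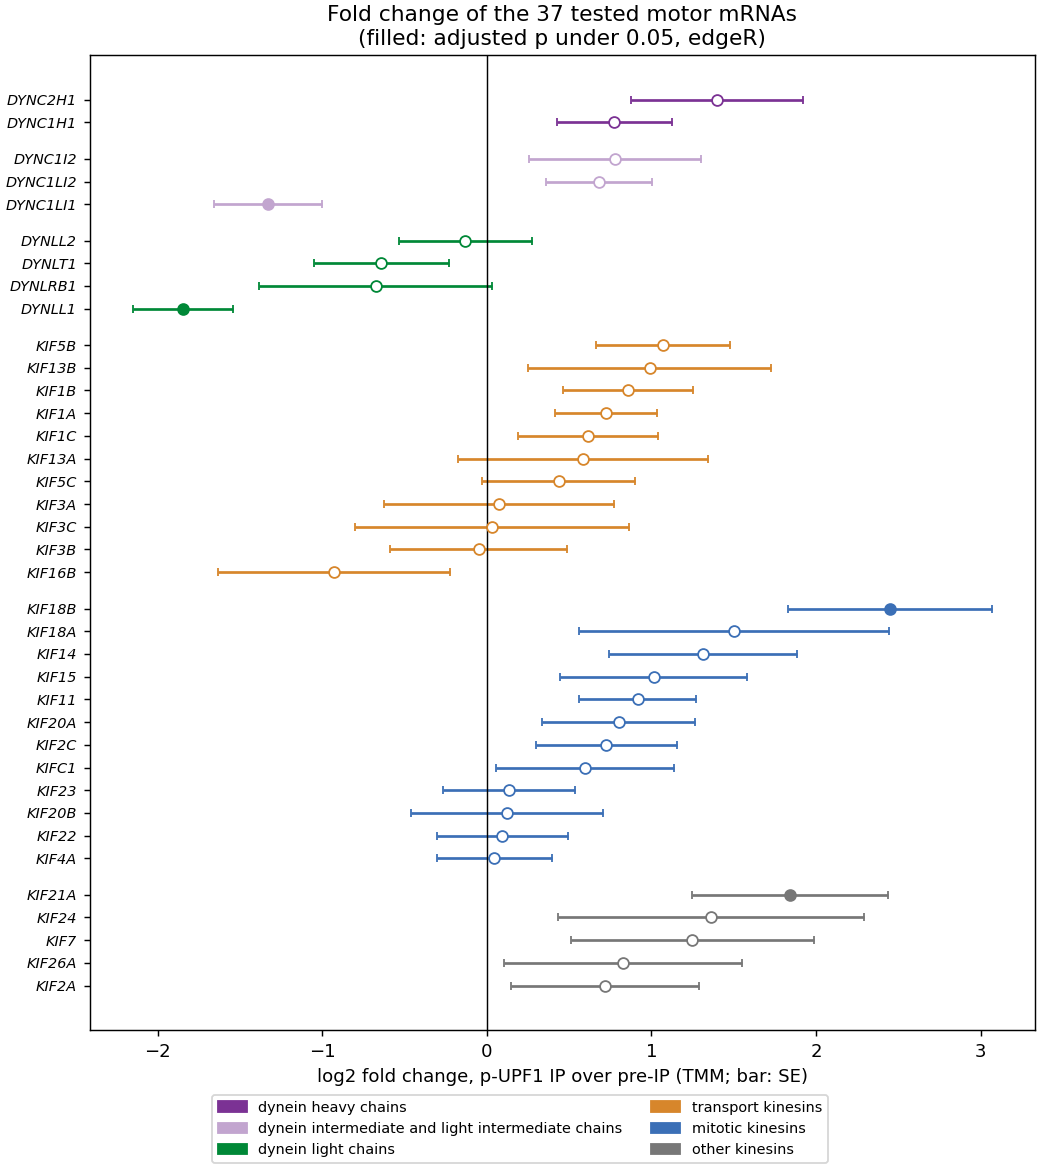
Log2 fold change of each of the 37 tested motor genes, p-UPF1 IP over pre-IP with TMM scaling (horizontal axis), ordered by role from dynein heavy chains at the top to other kinesins at the bottom. Bars are standard errors and filled points passed the edgeR test. The 4 dynein light chains lie at or below -0.13 and 26 of 28 kinesins above 0, while with library totals alone DYNLL1 would be the only motor gene below 0.

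DYNC1H1, the heavy chain of the cytoplasmic dynein that carries cargo and positions the spindle, was the most counted motor gene. It lies on chromosome 14, and its main transcript in the GENCODE 29 annotation has 78 exons and 20003 nt, of which 13938 are coding. It had 2778, 1825 and 1541 counts in p-UPF1 IP against 291, 169 and 241 in pre-IP. As TMM-scaled CPM, the unit in which levels are given from here on, these were 848, 664 and 862 in p-UPF1 IP and 372, 605 and 416 in pre-IP. Every p-UPF1 IP library thus lay above every pre-IP library, which held for 21.9% of all tested genes. The means were 792 ± 110 CPM in p-UPF1 IP and 465 ± 124 CPM in pre-IP (SD, n = 3 each). The log2 fold change of 0.77 (SE 0.35) did not pass the edgeR test (adjusted p = 0.126), but DESeq2 called it (log2 fold change 0.87, adjusted p = 0.0195). DYNC1H1 passed in none of the 6 edgeR fits with a library left out (adjusted p of 0.0567 to 0.315). Its log2 fold change was 2.40 with library totals alone, where it passed, and -0.28 after a transcript length trend was taken out of each library.

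DYNC2H1, the heavy chain of the dynein that returns intraflagellar transport trains from the tip of cilia, has a 13330-nt transcript on chromosome 11. It had 630, 202 and 281 counts in p-UPF1 IP against 87, 5 and 10 in pre-IP. In CPM these were 192, 73.5 and 157 in p-UPF1 IP and 111, 17.9 and 17.3 in pre-IP. Pre-IP replicate 1 stood above p-UPF1 IP replicate 6, so the groups overlapped. The log2 fold change was 1.40 (SE 0.52, edgeR adjusted p = 0.0690), and without pre-IP replicate 1 it was 3.01 with an adjusted p of 0.00126. In 5 of the 6 edgeR fits with a library left out DYNC2H1 did not pass (adjusted p up to 0.248). With all 6 libraries it passed the test with library totals alone (log2 fold change 2.91, adjusted p = 0.000531) and with no filter on low counts (1.57, adjusted p = 0.000494). Lifting that filter also brought KIF1B, KIF5B and KIF11 past the threshold.

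**Figure D2:**
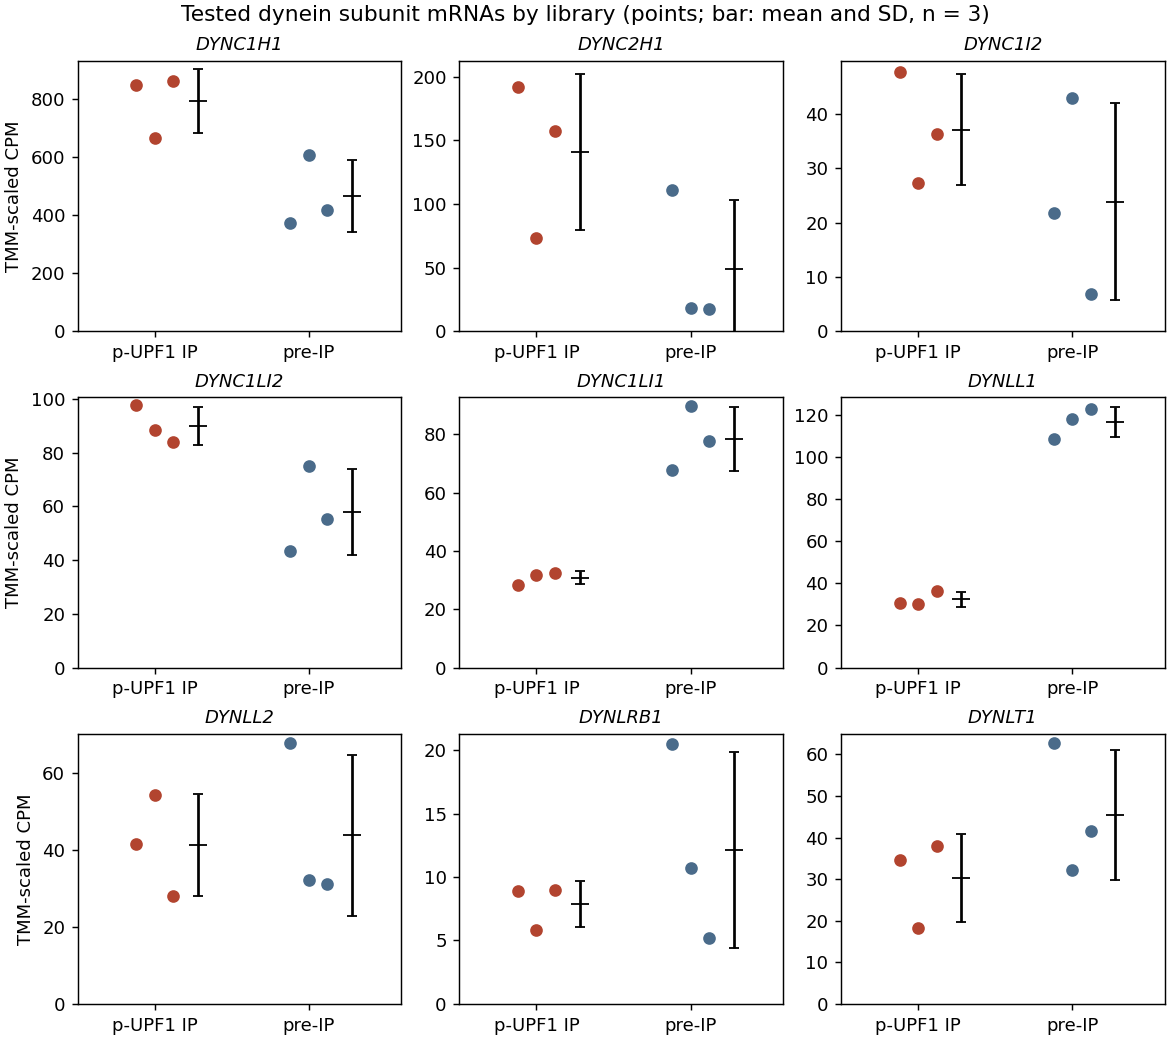
TMM-scaled CPM (vertical axis, from 0 in each panel) of the 9 tested dynein genes in each library, with p-UPF1 IP left of pre-IP. Points are libraries, and the bars beside them give the mean and SD of 3 libraries, with the DYNC2H1 bar in pre-IP cut off at 0. DYNC1H1 is at 664 to 862 in p-UPF1 IP and 372 to 605 in pre-IP, and DYNLL1 at 30.2 to 36.4 in p-UPF1 IP and 109 to 123 in pre-IP.

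The light intermediate chains, which link dynein to its cargo adaptors, went in opposite directions. DYNC1LI1 had 93, 87 and 58 counts in p-UPF1 IP against 53, 25 and 45 in pre-IP. Scaled, these were 28.4, 31.7 and 32.4 CPM in p-UPF1 IP and 67.8, 89.5 and 77.8 CPM in pre-IP. The groups did not overlap, as was the case in this direction for 17.7% of all tested genes. DYNC1LI1 fell by 1.33 on the log2 scale (SE 0.33, edgeR adjusted p = 0.0091), but with library totals alone its log2 fold change was 0.24. Without p-UPF1 IP replicate 3 the adjusted p was 0.0596.

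Its paralog DYNC1LI2 had 320, 243 and 150 counts in p-UPF1 IP against 34, 21 and 32 in pre-IP. In CPM these were 97.7, 88.5 and 83.9 in p-UPF1 IP and 43.5, 75.2 and 55.3 in pre-IP, again with no overlap but with p-UPF1 IP on the higher side. The log2 fold change of 0.68 (SE 0.32) did not pass the edgeR test (adjusted p = 0.143). The annotated transcripts are 2504 nt for DYNC1LI1 and 4515 nt for DYNC1LI2.

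Intermediate chains form the platform on which the light chains and dynactin bind. DYNC1I2 had 156, 75 and 65 counts in p-UPF1 IP against 17, 12 and 4 in pre-IP, with a log2 fold change of 0.78 (SE 0.52, edgeR adjusted p = 0.318). DYNC1I1, known as the neuronal intermediate chain, had 18, 4 and 2 counts in p-UPF1 IP and none in pre-IP. Set against a floor of 3 counts over the whole pre-IP group, and after scaling, it was at least 1.68-fold higher in p-UPF1 IP. DYNC2LI1, a subunit of the ciliary dynein, had 17, 18 and 24 counts in p-UPF1 IP and 3, 0 and 6 in pre-IP, and neither gene was tested.

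Light chains are small dimeric subunits that sit on the intermediate chain and also bind many partners outside dynein. DYNLL1 and DYNLL2 encode near-identical LC8 light chains, and are shown because their coding sequences are alike while their transcripts and their values in these libraries are not. The GENCODE 29 coding sequences (GRCh38, without the stop codon), both on the plus strand, DYNLL1 on chromosome 12 and DYNLL2 on chromosome 17, read as follows, with capitals at the positions where they differ.
DYNLL1: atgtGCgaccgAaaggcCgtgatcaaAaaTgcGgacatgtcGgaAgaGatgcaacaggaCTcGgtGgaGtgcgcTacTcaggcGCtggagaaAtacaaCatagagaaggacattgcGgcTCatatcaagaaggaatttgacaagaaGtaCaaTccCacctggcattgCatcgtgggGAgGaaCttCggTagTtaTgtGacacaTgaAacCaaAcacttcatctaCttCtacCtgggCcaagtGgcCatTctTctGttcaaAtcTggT
DYNLL2: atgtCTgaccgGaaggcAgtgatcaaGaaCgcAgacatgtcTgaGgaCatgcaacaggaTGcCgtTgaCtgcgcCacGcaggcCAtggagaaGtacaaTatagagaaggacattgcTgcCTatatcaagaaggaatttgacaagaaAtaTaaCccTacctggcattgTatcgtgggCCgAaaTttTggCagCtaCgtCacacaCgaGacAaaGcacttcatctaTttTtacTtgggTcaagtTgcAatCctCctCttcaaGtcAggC

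Over 267 nt the pair shared 213 positions (79.8%) and differed at 54, and the longest identical run was 25 nt. Of 89 codons, 51 differed, and 45 of these encoded the same amino acid in both genes. The third codon position held 48 of the 54 differences. The transcripts differ far more than the proteins: DYNLL1 has 814 nt with a 3′ end, from the stop codon on, of 286 nt, and DYNLL2 has 6805 nt with 6260 nt from the stop codon on. The annotation lists 7 pseudogenes of DYNLL1, of which 0 are in the table, and places an antisense RNA gene, NRAV, across it, so that the DYNLL1 counts may include reads of other origin.

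DYNLL1 had 100, 83 and 65 counts in p-UPF1 IP against 85, 33 and 71 in pre-IP. In CPM these were 30.5, 30.2 and 36.4 in p-UPF1 IP and 109, 118 and 123 in pre-IP. The pre-IP libraries were far above all p-UPF1 IP libraries, with means of 32.4 ± 3.45 CPM in p-UPF1 IP and 117 ± 7.11 CPM in pre-IP (SD, n = 3 each). DYNLL1 fell by 1.85 on the log2 scale (SE 0.31, edgeR adjusted p = 0.000577), the lowest value of the 37 tested motor genes. It was the only motor gene called when any one of the 6 libraries was left out (adjusted p of 0.00136 to 0.00763). The call was lost with library totals alone (log2 fold change -0.28, adjusted p = 0.524) and after a transcript length trend was taken out of each library (log2 fold change -0.64, adjusted p = 0.156).

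DYNLL2 had 136, 149 and 50 counts in p-UPF1 IP against 53, 9 and 18 in pre-IP. In CPM these were 41.5, 54.2 and 28 in p-UPF1 IP and 67.8, 32.2 and 31.1 in pre-IP, and the groups overlapped. Its log2 fold change was -0.13 (SE 0.40, edgeR adjusted p = 0.853) with TMM scaling and 1.34 with library totals alone, where it passed the test (adjusted p = 0.0169). Within each library the count of DYNLL2 over that of DYNLL1, which no scaling can change, was 1.36, 1.80 and 0.769 in p-UPF1 IP and 0.624, 0.273 and 0.254 in pre-IP. These ratios did not overlap, and their geometric mean was 3.52-fold higher in p-UPF1 IP.

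DYNLT1, a light chain of the Tctex family, had 113, 50 and 68 counts in p-UPF1 IP against 49, 9 and 24 in pre-IP. In CPM it was at 34.5, 18.2 and 38.0 in p-UPF1 IP and 62.7, 32.2 and 41.5 in pre-IP, with overlap. DYNLT1 had a log2 fold change of -0.64 (SE 0.41, edgeR adjusted p = 0.293). DYNLRB1, a light chain of the roadblock family, had 29, 16 and 16 counts in p-UPF1 IP against 16, 3 and 3 in pre-IP, with a log2 fold change of -0.68 (SE 0.71, edgeR adjusted p = 0.543).

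Neither DYNLT1 nor DYNLRB1 thus separated the groups, and with library totals alone both fold changes were positive (0.91 for DYNLT1 and 0.84 for DYNLRB1). DYNLT3, the second Tctex member, had 7, 7 and 10 counts in p-UPF1 IP and 1, 0 and 11 in pre-IP, and was not tested. DYNLRB2, the second roadblock member, had no count in any library. Over the 4 tested light chains, 1 was called lower (25%, against 10.9% of all tested genes) and 0 higher (against 8.81%), too few genes to tell these shares apart. The median log2 fold change was -0.66, against 0.10 over all tested genes. With library totals alone the median was 0.87, against 1.63 over all tested genes.

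Per kilobase of transcript, DYNLL1 and the heavy chain DYNC1H1 stood at like levels in p-UPF1 IP, at 39.8 CPM per kb for DYNLL1 and 39.6 for DYNC1H1. In pre-IP DYNLL1 stood at 143 CPM per kb and DYNC1H1 at 23.2. DYNLT1 had 41.7 CPM per kb in p-UPF1 IP and 62.6 in pre-IP, DYNLRB1 had 11.7 in p-UPF1 IP and 18.0 in pre-IP, and DYNLL2 had 6.06 in p-UPF1 IP and 6.42 in pre-IP. The order of levels among dynein genes therefore differed between the groups, with DYNLL1 first in pre-IP and level with DYNC1H1 and DYNLT1 in p-UPF1 IP.

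Heavy chains were set against light chains by their counts within each library, which removes the scaling. Both heavy chains together made up 0.166, 0.110 and 0.201% of all counts in p-UPF1 IP and 0.0321, 0.0290 and 0.0266% in pre-IP. The 6 light chains made up 0.0187, 0.0166 and 0.0231% in p-UPF1 IP and 0.0173, 0.00900 and 0.0134% in pre-IP. Heavy chain counts over light chain counts came to 8.85, 6.65 and 8.72 in p-UPF1 IP and 1.85, 3.22 and 1.98 in pre-IP. The lowest p-UPF1 IP ratio was above the highest pre-IP ratio, and the geometric means differed 3.52-fold, a log2 difference of 1.81. With each library left out in turn, the log2 difference ranged from 1.67 to 2.06. Long and short mRNAs differed across the table too. The median log2 fold change of tested protein-coding genes was 0.76 for transcripts of 8000 nt or more and -1.31 for those under 1000 nt. After a transcript length trend was taken out of each library, the heavy chain median was 0.16 and the light chain median 0.02.

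DYNC1H1 and DYNLL1 are the most counted heavy and light chain genes. DYNLL1 also had the lowest fold change of the light chains, so a large ratio for this pair follows in part from the choice. DYNC1H1 had 27.8, 22 and 23.7 counts for each DYNLL1 count in p-UPF1 IP and 3.42, 5.12 and 3.39 in pre-IP, a 6.24-fold difference. DYNC1LI2 over DYNC1LI1 was 3.44, 2.79 and 2.59 in p-UPF1 IP and 0.642, 0.840 and 0.711 in pre-IP, so the more abundant member of the pair differed between the groups. All kinesin genes over the light chains gave 11.6, 9.96 and 9.94 in p-UPF1 IP and 3.41, 3.44 and 3.28 in pre-IP. For a pair of long kinesin mRNAs, KIF5B over KIF11, the ratios were 1.01, 0.897 and 1.53 in p-UPF1 IP and 1.25, 0.714 and 0.704 in pre-IP, and they overlapped. KIF5B and KIF11 had close log2 fold changes (1.07 and 0.92), so this overlap also follows in part from the choice. The choice of these ratios was made with earlier results of these data known, and they are descriptions with no test.

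**Figure D3:**
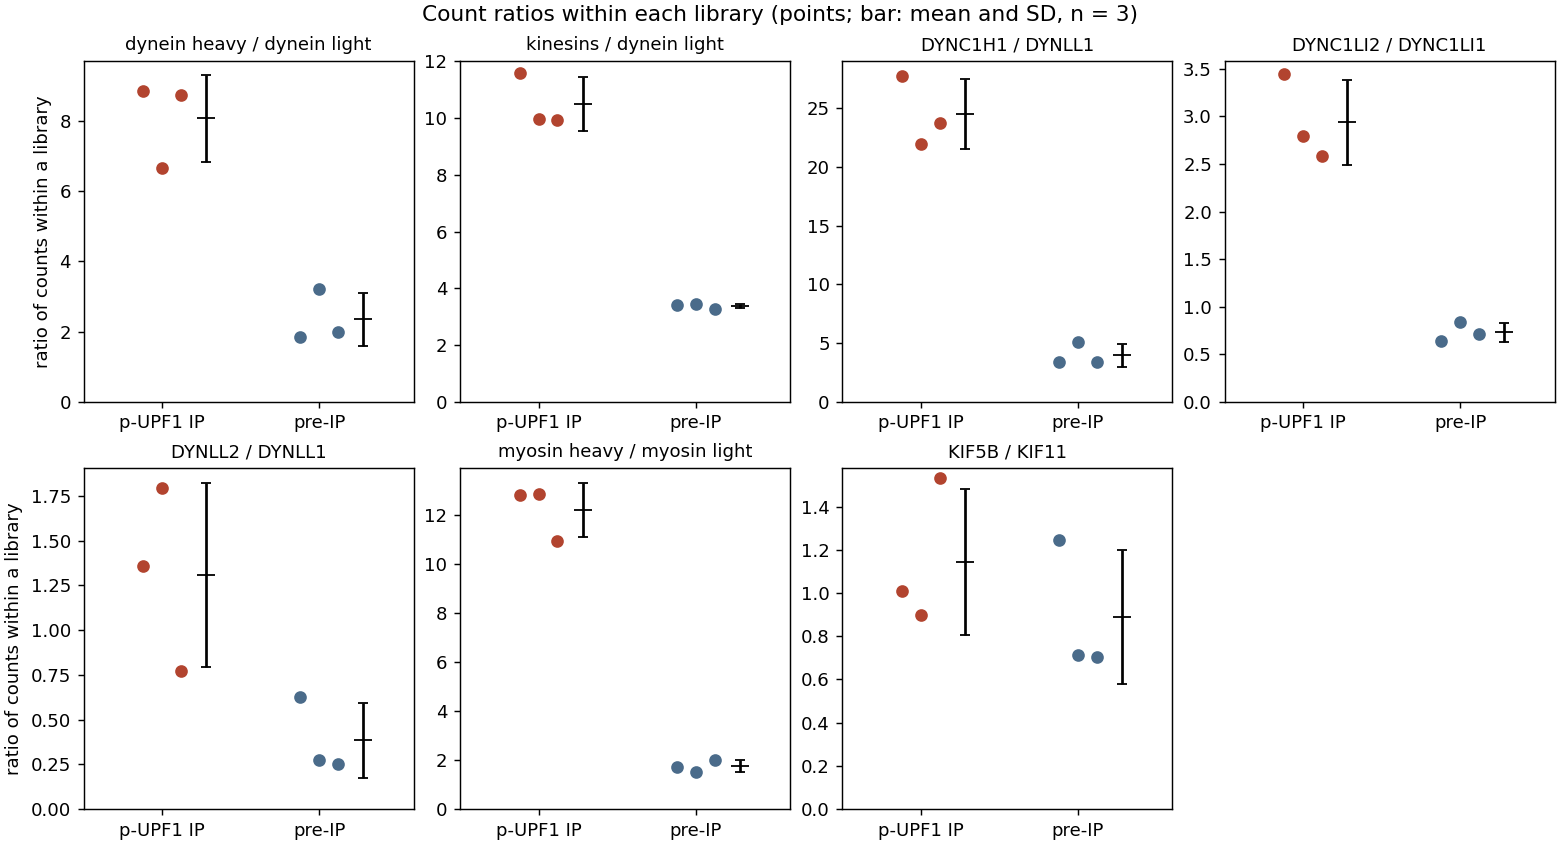
Ratios of counts within each library (vertical axis, from 0 in each panel) for 7 pairs of genes or gene groups, p-UPF1 IP left of pre-IP, with points for the 3 libraries of each group and bars for their mean and SD. Heavy over light chains lies at 6.65 to 8.85 in p-UPF1 IP and 1.85 to 3.22 in pre-IP, while the KIF5B over KIF11 points overlap between the groups.

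The transport kinesins, which carry vesicles, organelles and ciliary cargo, had 11 of 13 genes tested and none past the threshold in either direction, while 3 reached an unadjusted p under 0.05. Their median log2 fold change was 0.58, and 9 of 11 were positive. KIF1A, the carrier of synaptic vesicle precursors in neurons, was the most counted kinesin, with 508, 536 and 205 counts in p-UPF1 IP against 58, 33 and 55 in pre-IP. Its CPM were 155, 195 and 115 in p-UPF1 IP and 74.2, 118 and 95 in pre-IP, which overlapped by a narrow margin, and the log2 fold change was 0.72 (SE 0.31, edgeR adjusted p = 0.111).

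KIF1B, which moves mitochondria and synaptic vesicle precursors, had 417, 251 and 145 counts in p-UPF1 IP against 31, 7 and 55 in pre-IP. Scaled means were 99.9 ± 24.3 CPM in p-UPF1 IP and 53.3 ± 36.9 CPM in pre-IP (SD, n = 3 each). The log2 fold change was 0.86 (SE 0.39, edgeR adjusted p = 0.134), and without pre-IP replicate 7, its highest control library, it was 1.58 with an adjusted p of 0.0112. KIF1B did not pass in 5 of the 6 edgeR fits with a library left out (adjusted p up to 0.450).

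KIF5B, the ubiquitous conventional kinesin heavy chain, had 372, 227 and 199 counts in p-UPF1 IP against 66, 5 and 19 in pre-IP. In CPM these were 114, 82.6 and 111 in p-UPF1 IP and 84.4, 17.9 and 32.8 in pre-IP. Pre-IP replicate 1 was again the high control library and overlapped p-UPF1 IP replicate 6. KIF5B had a log2 fold change of 1.07 (SE 0.41, edgeR adjusted p = 0.0726), and of 1.93 with an adjusted p of 0.00517 without that library. It did not pass in 5 of the 6 edgeR fits with a library left out (adjusted p up to 0.213).

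The heterotrimeric kinesin-2 motors, which build cilia, were near 0: KIF3A had a log2 fold change of 0.07, KIF3B of -0.05 and KIF3C of 0.03. KIF16B, an endosome motor, had the lowest value among kinesins, at -0.93 (SE 0.71, edgeR adjusted p = 0.380), with 21, 16 and 12 counts in p-UPF1 IP against 10, 1 and 10 in pre-IP. KIF5C (0.44), KIF1C (0.62), KIF13A (0.58) and KIF13B (0.99) had positive log2 fold changes that did not pass. KIF5A, a neuronal relative of KIF5B, was not tested: it had 10, 13 and 15 counts in p-UPF1 IP and 0, 1 and 0 in pre-IP. Their ratio after scaling was 7.98 with an exact 95% counting interval of 1.35 to 323. KIF17, also untested, had 4, 7 and 3 counts in p-UPF1 IP and 14, 0 and 0 in pre-IP.

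The mitotic kinesins had 12 of 14 genes tested, with 1 called higher (8.33%, against 8.81% of all tested genes) and 0 lower (against 10.9%). Their median log2 fold change was 0.76. All 12 values were positive with TMM scaling, against 4339 of all 8070 tested genes. After the transcript length trend was taken out, 3 of the 12 were negative. KIF18B, which with its partners shortens astral microtubules in mitosis, had 145, 105 and 70 counts in p-UPF1 IP against 1, 5 and 5 in pre-IP. Its CPM were 44.3, 38.2 and 39.2 in p-UPF1 IP and 1.28, 17.9 and 8.64 in pre-IP, without overlap. KIF18B rose by 2.45 on the log2 scale (SE 0.62, edgeR adjusted p = 0.0105), the highest value of the 37 tested motor genes, on 11 counts in the whole pre-IP group. It entered the test through its p-UPF1 IP counts alone, so the p-value is no independent support.

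KIF18B also passed the test with library totals alone (log2 fold change 3.98), with DESeq2 (2.47) and with the length trend taken out (2.40, adjusted p = 0.0185). It did not pass without p-UPF1 IP replicate 3, the deepest library (2.31, adjusted p = 0.0643). Its transcript is 2745 nt, below many other kinesins in length. A microRNA gene, MIR6783, lies inside it on the same strand, and reads of overlapping genes cannot be told apart here.

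KIF11, the tetrameric motor that pushes spindle poles apart, had 369, 253 and 130 counts in p-UPF1 IP against 53, 7 and 27 in pre-IP. In CPM these were 113, 92.1 and 72.7 in p-UPF1 IP and 67.8, 25.1 and 46.7 in pre-IP, without overlap. The log2 fold change was 0.92 (SE 0.36, edgeR adjusted p = 0.0793), and 1.30 with an adjusted p of 0.0354 without pre-IP replicate 1. In 5 of the 6 edgeR fits with a library left out KIF11 did not pass (adjusted p up to 0.298).

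KIF2C, which takes tubulin off microtubule ends at centromeres, had 263, 188 and 146 counts in p-UPF1 IP against 31, 26 and 11 in pre-IP. Its log2 fold change was 0.73 (SE 0.43, edgeR adjusted p = 0.246), and 1.39 with an adjusted p of 0.0216 without pre-IP replicate 4. KIF2C did not pass in 5 of the 6 edgeR fits with a library left out, where its log2 fold change went down to 0.35 (adjusted p up to 0.569). KIF23, a subunit of the centralspindlin complex of cytokinesis, had 283, 143 and 157 counts in p-UPF1 IP against 78, 6 and 42 in pre-IP, with a log2 fold change of 0.13 (SE 0.40, edgeR adjusted p = 0.847). The chromosome arm motor KIF22 had 133, 142 and 118 counts in p-UPF1 IP against 24, 24 and 24 in pre-IP. In CPM it stood at 52.8 ± 12.7 in p-UPF1 IP and 52.7 ± 29.3 in pre-IP (SD, n = 3 each), with a log2 fold change of 0.09 (SE 0.40, edgeR adjusted p = 0.894).

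Mitotic kinesins thus ranged from no difference within the spread of the libraries to the highest value of the family. KIF14 (1.31), KIF15 (1.01), KIF18A (1.5), KIF20A (0.80), KIFC1 (0.60), KIF20B (0.12) and KIF4A (0.04) made up the rest, and none passed. KIF4B, a close copy of KIF4A whose reads may be shared with it, had 1 count in all and KIF2B none.

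Of 15 other kinesins, 5 were tested, with 1 called higher (20%, against 8.81% of all tested genes) and 0 lower (against 10.9%). With so few genes these shares cannot be told apart. The median log2 fold change was 1.25. KIF21A, which restrains microtubule growth at the cell cortex, had 95, 62 and 57 counts in p-UPF1 IP against 9, 2 and 2 in pre-IP. Its CPM were 29, 22.6 and 31.9 in p-UPF1 IP and 11.5, 7.16 and 3.46 in pre-IP, without overlap. KIF21A rose by 1.84 on the log2 scale (SE 0.59, edgeR adjusted p = 0.0375). As with KIF18B, only its p-UPF1 IP counts brought it into the test, so the p-value is no independent support.

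The KIF21A call was fragile: it was lost without pre-IP replicate 7 (adjusted p = 0.0827) and without p-UPF1 IP replicate 3 (0.148), 6 (0.0845) or 9 (0.150). KIF7, a regulator of Hedgehog signalling in cilia, had a log2 fold change of 1.25, and KIF24, which acts at the centriole, of 1.36. KIF26A had 0.83, and KIF2A, a relative of KIF2C, had 0.72. The 9 untested genes with counts had at most 43 counts each over the 6 libraries, and KIF19 had none. KIF26B, for example, had 10, 7 and 14 counts in p-UPF1 IP and 0, 0 and 3 in pre-IP, a ratio of 2.17 with an exact 95% counting interval of 0.677 to 11.1. The antisense RNA KIF9-AS1 had 8, 1 and 1 counts in p-UPF1 IP and none in pre-IP.

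Of the 37 tested motor genes, 8 had every p-UPF1 IP library above every pre-IP library (DYNC1H1, DYNC1LI2, KIF1C, KIF7, KIF11, KIF14, KIF18B and KIF21A). At 21.6%, this share was near the 21.9% of all tested genes. The reverse held for 2 (5.41%, against 17.7% of all tested genes). DYNC1I1 and KIF9-AS1, which were not tested, had a count in every p-UPF1 IP library and none in pre-IP. They are outside these shares, and no share over untested genes was computed. KIF9-AS1 had too few counts for a bound above 1-fold against the floor of 3 counts. With library totals alone, 30 of 37 were called higher and 0 lower, against 60.4% of all tested genes higher and 1.93% lower, and the median was 2.24 against 1.63.

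Fold change went with transcript length in the family and in the table at large. Across the 37 tested motor genes, Pearson's r between log2 fold change and log2 transcript length was 0.48 (Spearman's rho 0.33), and with log2 coding length it was 0.60 (rho 0.55). Across 7467 tested protein-coding genes the values were 0.35 (rho 0.34) for transcripts and 0.44 (rho 0.46) for coding length. These are correlations across genes that share libraries and overlap in annotation, and genes are not independent replicates.

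Of 273 tested protein-coding genes with transcripts under 1000 nt, 48.4% were called lower and 0.366% higher, with a median log2 fold change of -1.31. The 3 light chains in this class (DYNLL1, DYNLT1 and DYNLRB1) had a median of -0.68. Of 709 genes with transcripts of 8000 nt or more the median was 0.76, and the 5 motor genes in this class had 0.86. The short light chains and both heavy chains thus lay on the side of 0 where most genes of their length lay.

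After a smooth trend on transcript length was taken out of each library, KIF18B was called higher and DYNC1LI1 lower (log2 fold change -1.31, adjusted p = 0.0140). That is 1 of 37 in each direction, against 5.5% of all genes higher and 6.4% lower. The median of the motor genes was 0.41, with 12 negative values. The heavy chain median was 0.16 and the light chain median 0.02. DYNC1H1 had -0.28 and DYNC2H1 0.60.

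**Figure D4:**
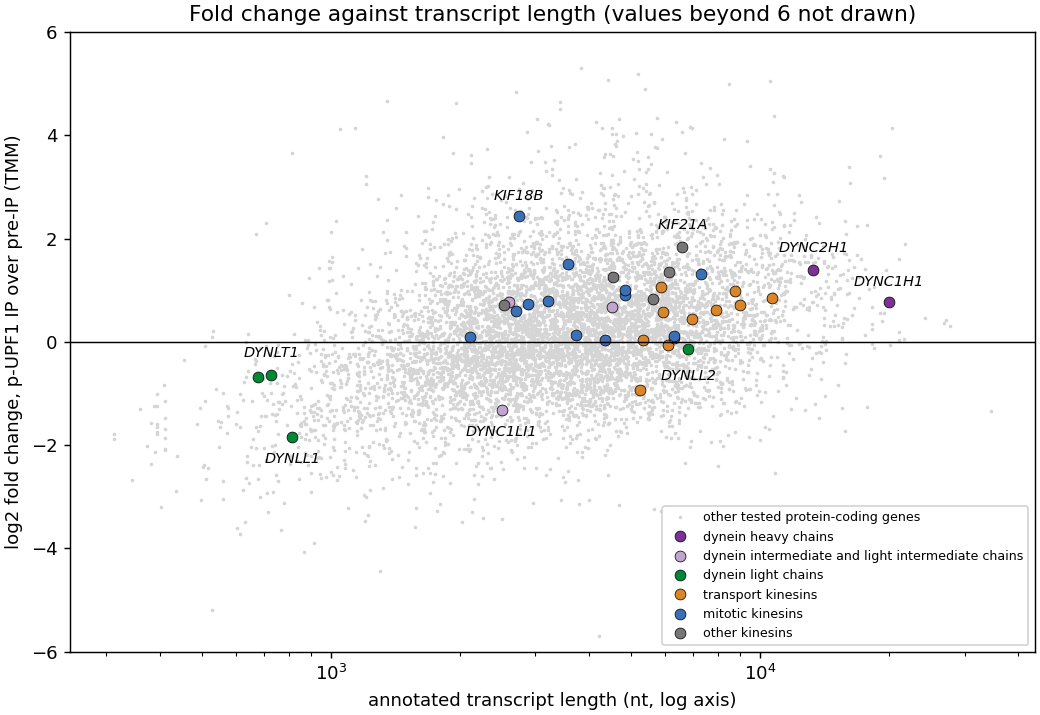
Log2 fold change (p-UPF1 IP over pre-IP, TMM) against annotated transcript length in nt (log axis) for the 7467 tested protein-coding genes, with the 37 motor genes among them in colour by role and the others in grey. The vertical axis is cut at ±6, beyond which 30 of the grey genes lie. The short light chains DYNLL1, DYNLT1 and DYNLRB1 lie low at the left, and DYNC1H1 and DYNC2H1 at the far right lie above 0.

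Partner proteins of the motors were followed through lists of related genes, also chosen with earlier results known. Of 13 tested kinesin light chains and adaptors, 1 was called higher (7.69%, against 8.81% of all tested genes) and 0 lower (against 10.9%), with a median log2 fold change of 0.60. PLEKHM2, which recruits kinesin to lysosomes, had 122, 89 and 60 counts in p-UPF1 IP against 12, 0 and 4 in pre-IP, and rose by 1.93 (SE 0.59, edgeR adjusted p = 0.0301). This call was lost without pre-IP replicate 7 or any one of the p-UPF1 IP libraries (adjusted p of 0.0595 to 0.129), and with the length trend taken out (0.0687). PLEKHM2 lay under the count cutoff for testing in pre-IP replicates 4 and 7. Its pre-IP counts alone would not have brought it into the test, so the p-value is no independent support. The scaffold SPAG9 (0.43) and the kinetochore motor CENPE (1.30, edgeR adjusted p = 0.0788) were the most counted genes of this list. CENPE is itself a kinesin and not a light chain or adaptor. Its symbol lies outside the rule for the motor genes, so it is not among the kinesins counted above.

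Dynactin, the complex that makes dynein processive, had 11 of 12 subunits tested, with 1 higher (9.09%, against 8.81% of all tested genes), 0 lower (against 10.9%) and a median of -0.18. ACTR1A, which forms the actin-like filament of dynactin, had 367, 280 and 198 counts in p-UPF1 IP against 21, 19 and 15 in pre-IP, and rose by 1.55 (SE 0.38, edgeR adjusted p = 0.0080). DCTN1, the large arm subunit, had a log2 fold change of -0.20, and 1.31 with library totals alone. The related actin-like subunits ACTR1B (0.10) and ACTR10 (-0.97) did not pass. With the length trend taken out, 3 of the 11 were called higher, against 5.5% of all genes, and 0 lower. These were ACTR1A (1.49, edgeR adjusted p = 0.0146), DCTN2 (1.06, 0.0307) and CAPZB (1.92, 0.0091), and the median was -0.43.

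Among 14 tested dynein regulators and adaptors, 2 were called higher (14.3%, against 8.81% of all tested genes) and 0 lower (against 10.9%), with a median of 0.42. NIN, a dynein activator at the centrosome, had 291, 138 and 92 counts in p-UPF1 IP against 13, 1 and 11 in pre-IP, and rose by 2.12 (SE 0.47, edgeR adjusted p = 0.0042, or 0.0553 without p-UPF1 IP replicate 3). NIN lay under the count cutoff for testing in pre-IP replicate 4. Its pre-IP counts alone would not have brought it into the test, so its p-value is no independent support. NDE1, a partner of LIS1, had 58, 34 and 33 counts in p-UPF1 IP against 4, 0 and 1 in pre-IP, and rose by 2.45 (SE 0.84, edgeR adjusted p = 0.0475). It entered the test through its p-UPF1 IP counts alone, so this p-value is no independent support. The NDE1 call held when pre-IP replicate 1 was left out and was lost without any one of the other 5 libraries (adjusted p of 0.0771 to 0.174), without small structured RNA genes (0.057) and with the length trend taken out (0.0865). LIS1 itself (PAFAH1B1, 0.07) and the spindle pole adaptor NUMA1 (0.20) did not pass. WDR34, WDR60 and TCTEX1D2 of this list are subunits of the ciliary dynein and not regulators or adaptors. Their symbols lie outside the rule for the motor genes. WDR60 had the lowest value of the list (-2.68, SE 0.96, edgeR adjusted p = 0.0577).

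Axonemal dyneins drive the beat of motile cilia, which HEK293T cells are not known to have. Of 18 genes, 13 had a count and 5 were tested. DNAH1 and DNAH6 entered the test through their p-UPF1 IP counts alone, so that a difference was bound to be found, and their p-values are not given. DNAH1 had 32, 30 and 27 counts in p-UPF1 IP and none in pre-IP, at least 6.23-fold higher against the floor of 3 counts. DNAH6 had 54, 29 and 21 counts in p-UPF1 IP and none in pre-IP, at least 7.28-fold higher. DNAH14, with a transcript of 13763 nt, had 159, 92 and 49 counts in p-UPF1 IP against 78, 39 and 43 in pre-IP. It fell by 1.48 with TMM scaling (SE 0.35, edgeR adjusted p = 0.0068) and had a log2 fold change of 0.07 with library totals alone. Without p-UPF1 IP replicate 9 its adjusted p was 0.0527, and with the length trend taken out its log2 fold change was -2.35. DNAL1 (-0.69) and DNAL4 (0.49), axonemal light chains, did not pass. The cilia markers FOXJ1, RSPH1 and CCDC39 had no count, and the 5 such markers summed to 1, 2 and 2 counts in p-UPF1 IP and 3, 0 and 0 in pre-IP.

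Myosins, the actin motors, gave a second set of long heavy chains and short light chains. Of 15 tested heavy chains 6 were called higher (40%, against 8.81% of all tested genes) and 0 lower (against 10.9%), all 15 were positive, and the median was 1.28. With the length trend taken out, 2 were called (MYO5B and MYO19), 3 were negative and the median was 0.60. MYO5B, a recycling endosome motor, had 106, 84 and 36 counts in p-UPF1 IP against 1, 2 and 1 in pre-IP (log2 fold change 3.40, SE 0.76, edgeR adjusted p = 0.00489). MYO19 (2.60), MYO9B (2.29), MYO6 (2.18), MYO1D (1.57) and MYO9A (1.28) were the others called. In the whole pre-IP group MYO19 had 8 counts, MYO9B 12 and MYO6 11. These genes and MYO5B lay under the count cutoff for testing in every pre-IP library. They entered the test through their p-UPF1 IP counts alone, so their calls, and the share of 40% that includes them, are no independent support. MYO1D lay under the cutoff in pre-IP replicate 7 and MYO9A in pre-IP replicate 4. Their pre-IP counts alone would not have brought these genes in, so their calls are no independent support either. Without p-UPF1 IP replicate 3 the calls of MYO6, MYO9A, MYO9B and MYO19 were lost, and without p-UPF1 IP replicate 6 those of MYO1D, MYO6, MYO9A and MYO19. MYO9A was also lost without p-UPF1 IP replicate 9 and without pre-IP replicate 4 or 7. The nonmuscle myosins MYH9 (0.80) and MYH10 (0.26) did not pass.

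Of 3 tested myosin light chains 0 were called higher and 2 lower (66.7%, against 10.9% of all tested genes). With library totals alone none of the 3 was called, and with the length trend taken out MYL6 was (adjusted p = 0.0213). MYL6, the essential light chain of nonmuscle myosin, had 130, 104 and 55 counts in p-UPF1 IP against 145, 50 and 80 in pre-IP, and fell by 2.20 (SE 0.30, edgeR adjusted p = 0.000104), or by 0.67 with library totals alone (adjusted p = 0.113). The regulatory light chain gene MYL12A fell by 2.40 (SE 0.57, edgeR adjusted p = 0.0072), or had -0.84 with library totals alone (adjusted p = 0.270), and its close copy MYL12B had -0.88, or 0.66 with library totals alone. MYL12A lay under the count cutoff for testing in p-UPF1 IP replicate 3. Its p-UPF1 IP counts alone would not have brought it into the test, so its p-value is no independent support. Myosin heavy over light chain counts were 12.8, 12.9 and 10.9 in p-UPF1 IP and 1.72, 1.52 and 2.00 in pre-IP, a 7.01-fold difference against 3.52-fold for dynein.

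**Figure D5:**
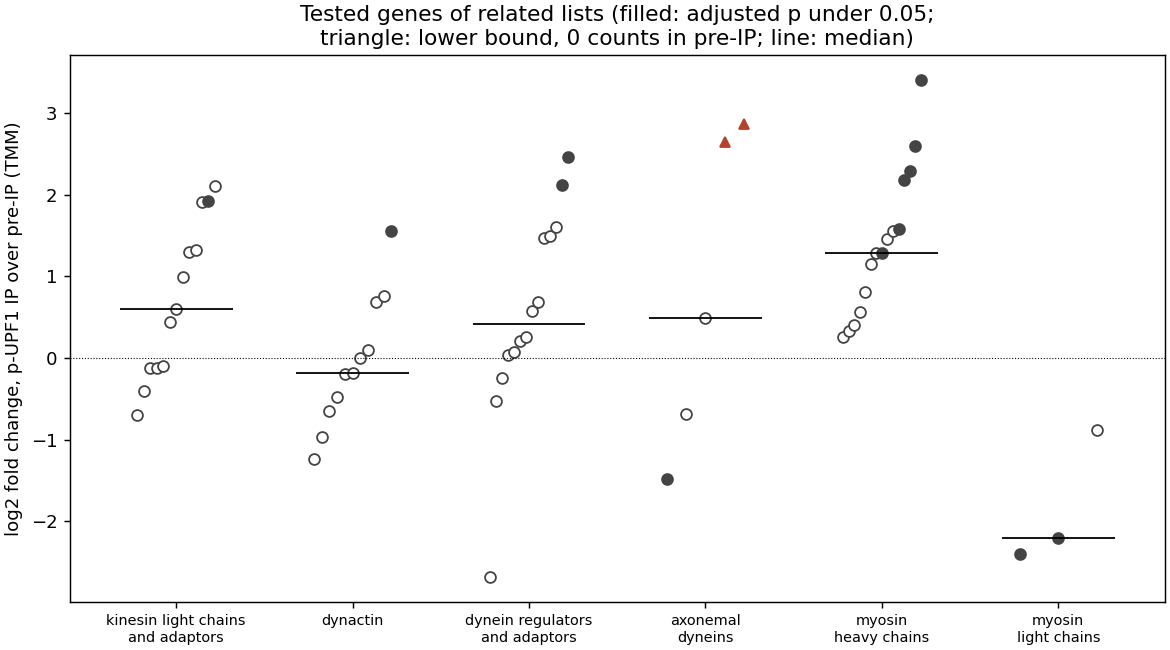
Log2 fold change (p-UPF1 IP over pre-IP, TMM) of the tested genes of each list of related genes, one point per gene, with filled points past the edgeR test and lines at the medians. Triangles are lower bounds for DNAH1 and DNAH6, which had no count in pre-IP. Medians run from 1.28 for myosin heavy chains to -2.20 for myosin light chains.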

How the data were processed

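The table the authors deposited gives raw counts, whole numbers of reads for every gene symbol in each library. For its making the submitters' processing notes name cutadapt 1.15, STAR 2.5.2b, Subread 1.5.0p3 (featureCounts) and genome build hg19. Which annotation and strand setting were used, and how reads matching several places were treated, is not given in the sources used here. It follows that reads of overlapping genes (15 motor genes overlap another gene of the table) or of near-identical copies cannot be told apart. Per the labels' protocols, ribosomal RNA was depleted, adapters were ligated to both ends, and inserts above 20 bp were amplified and size-selected. No molecular identifiers are described, so intervals and floors cover counting error only.

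The whole table was fitted in edgeR 4.0.16 under R 4.3.3 (quasi-likelihood F-test, TMM scaling, genes kept by filterByExpr at a minimum of 10 counts, Benjamini-Hochberg at 0.05 over 8070 genes), after a check on simulated data. The standard error is the log2 fold change over the square root of F. TMM-scaled CPM were computed from the deposited counts. Where a group had no count, folds are bounds against 3 counts over the group. With 1 to 3 counts, the ratio has an exact (Clopper-Pearson) 95% interval. Lengths come from GENCODE 29 (GRCh38), matched by symbol for 96.6% of tested genes. The length trend was a loess curve of log2 counts on log2 length in each library. Other alternatives were RLE scaling, library totals, no or a stricter filter (minimum count 30), small structured RNA genes left out, DESeq2 1.42.0, and each library left out in turn.

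Genes named with their counts by rule are both heavy chains, all light chains, motor genes past the threshold and the 10 most counted motor genes. Of the lists, genes past the threshold and the 2 most counted of each list are named, some by fold change alone. Others are named where a group is completed. The members and lists were chosen with earlier results of these data known.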

Additional observations from a re-analysis of the deposited data

How the results depend on the processing

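The number of motor genes called was 4 in the edgeR fit, 4 with RLE scaling, 4 without small structured RNA genes, 4 with the stricter filter and 5 with DESeq2. It was 30 (30 higher) with library totals alone, 8 (6 higher, 2 lower) with no filter and 2 (1 higher, 1 lower) with the length trend taken out. With each library left out in turn it ranged from 1 (without p-UPF1 IP replicate 3) to 9 (without pre-IP replicate 1). Called genes of the 6 lists numbered 15, with 43 under library totals alone, 23 with no filter and 10 with the length trend taken out. With each library left out they numbered 8 to 21 (8 without p-UPF1 IP replicate 3). The 15 include DNAH1, DNAH6, MYO5B, MYO6, MYO9B, MYO19 and NDE1, which entered the test through their p-UPF1 IP counts alone. PLEKHM2, NIN, MYO1D and MYO9A lay under the cutoff in 1 or more pre-IP libraries, so pre-IP counts alone would not have admitted them. MYL12A, called lower, lay under it in p-UPF1 IP replicate 3. Over all genes the calls were 711 higher and 880 lower of 8070 tested in the edgeR fit. They were 4874 higher and 156 lower of 8070 with library totals alone, and 1101 higher and 851 lower of 15045 with no filter. With the length trend taken out they were 429 higher and 499 lower of 7796. Without p-UPF1 IP replicate 3, 6 or 9 they were 273 higher and 518 lower, 333 higher and 617 lower, and 312 higher and 596 lower. The log2 difference of heavy over light chain ratios, 1.81, ranged from 1.67 to 2.06.

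Log2 fold changes changed sign with library totals alone for DYNC1LI1 (0.24), DYNLL2 (1.34), DYNLRB1 (0.84), DYNLT1 (0.91), DCTN1 (1.31), DNAH14 (0.0704) and MYL12B (0.66). With the length trend taken out they did so for DYNC1H1 (-0.28), DYNLRB1 (0.66), DYNLT1 (0.63), KIF23 (-0.0576), MYH10 (-0.27), NUMA1 (-0.34) and PAFAH1B1 (-0.29). With no filter DYNLL2 had 0.0402, and with the stricter filter PAFAH1B1 had -0.0161. With each library left out in turn, these values crossed 0: DYNLL2 (-0.37 to 0.40, above 0 without p-UPF1 IP replicate 9 and without pre-IP replicate 1), DYNLRB1 (-1.05 to 0.10, above 0 without pre-IP replicate 1), KIF22 (-0.20 to 0.59, below 0 without p-UPF1 IP replicate 9 and without pre-IP replicate 1), KIF23 (-0.16 to 0.57, below 0 without pre-IP replicate 4), DCTN1 (-0.45 to 0.14, above 0 without pre-IP replicate 7) and PAFAH1B1 (-0.00849 to 0.16, below 0 without pre-IP replicate 4). The cause was not tested. No paired analysis was possible because the groups share no replicate number (3, 6 and 9 in p-UPF1 IP, 1, 4 and 7 in pre-IP) and no label ties libraries into sets. The pre-IP libraries hold few counts of most motor genes, which limits what a test can call.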
